A study of Rattus norvegicus with 12 samples.

Results

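The response to angiotensin II (AngII) after knockdown of the long non-coding RNA *Alivec* was measured in rat vascular smooth muscle cells (RVSMCs) on 6 of the 12 arrays of the series. These were the 3 arrays of cells given *Alivec*Gap and AngII and the 3 arrays of cells given *Alivec*Gap and PBS, as their labels name them. *Alivec*Gap is a GapmeR, an antisense oligonucleotide with a DNA core and locked nucleic acid ends that leads RNase H to its target RNA. A single GapmeR against *Alivec* was used on the arrays. The other 6 arrays held cells with a non-targeting GapmeR (NCGap), 3 with AngII and 3 with PBS. They served to estimate the spread of each gene and to give values side by side. The primary cells came from thoracic aortas of adult male Sprague-Dawley rats from which the endothelium had been removed. All 4 groups received a GapmeR at 100 nM for 48 h and were kept without serum before 100 nM AngII or PBS was added for 3 h. By their labels, the arrays of a group are numbered biological replicates. The sources used here do not say whether the cultures came from different rats. A p value here weighs a change against how much the arrays of a group differ.

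AngII acts on smooth muscle mainly through the type 1 receptor, which couples to Gq. Phospholipase C then releases calcium and activates protein kinase C, and the EGF receptor, Src kinases and the ERK pathway follow. Early response genes such as those of the AP-1, EGR and NR4A factors are transcribed first, without new protein. Secreted factors, enzymes and feedback inhibitors come next, and over longer times AngII is known for contraction, hypertrophy, matrix production and inflammation of the vessel wall. *Alivec* is transcribed near *Acan*, the gene of the cartilage proteoglycan aggrecan.

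*Alivec* has no probe set that carries its name, so the knockdown was not measured on these arrays. The paper reported by RT-qPCR that this GapmeR lowered AngII-induced *Alivec* only in part. The response described here is therefore one with less *Alivec*, not one without it. All 10 markers of smooth muscle reached a log2 signal of 6, the level under which the methods remove signals, on every *Alivec*Gap array. Of 11 endothelial markers 2 did so, of 11 leukocyte markers 1, of 5 Schwann cell markers 2, of 7 adipocyte markers 0 and of 9 fibroblast markers 8. Cultured smooth muscle cells can also express some of the fibroblast markers, and whether fibroblasts were present was not tested. Across the 14796 tested probe sets, the arrays of a group correlated at 0.992 to 0.994 and PBS arrays correlated with AngII arrays at 0.971 to 0.975. On *Alivec*Gap PBS replicate 3, the mean log2 signal of 33 tested interferon response genes was 8.12, against 7.58 and 7.64 on the other *Alivec*Gap PBS arrays and 7.59 to 7.76 with AngII. In bulk RNA, fewer cells that express a gene and less RNA per cell cannot be told apart.

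AngII still changed the transcriptome broadly after *Alivec* knockdown. In the limma fit, at an adjusted p under 0.05 (Benjamini-Hochberg over all tested probe sets), 1591 probe sets (10.8%) were higher and 2303 (15.6%) were lower with AngII than with PBS. Counted once per named gene, 1226 of 10184 genes (12%) were higher and 1633 (16%) lower, and the median log2 change of all of them was -0.04. Large changes were mostly increases. Of the named genes, 188 (1.85%) rose at least 2-fold and 56 (0.55%) fell at least 2-fold, and 43 rose and 3 fell at least 4-fold. For all 244 genes past 2-fold, the 3 AngII arrays lay entirely above or entirely below the 3 PBS arrays. They were chosen by their change and adjusted p, so this separation adds little. The share over all tested genes was not counted. With 3 arrays in a group, genes that were not called can also be separated, such as *Acta2* (limma, adjusted p = 0.232). In 24 of the 188 the PBS mean and in 8 of the 56 the AngII mean was under log2 6. For these, the fold is given below as a bound, with the lower mean set to 6.

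*Fosl1*, which encodes the AP-1 subunit Fra-1, had log2 signals of 6.80, 7.09 and 7.02 with PBS and 10.89, 11.05 and 10.92 with AngII. It rose 15.8-fold (log2 change 3.98, standard error 0.122, adjusted p = 7.81e-10). *Ptgs2*, the inducible cyclooxygenase of prostaglandin synthesis, had 7.91, 7.49 and 7.58 with PBS and 11.54, 11.80 and 11.54 with AngII and rose 15.6-fold (adjusted p = 9.58e-10). For both genes every AngII array lay more than 3 log2 units above every PBS array. *Serpinb2*, the plasminogen activator inhibitor type 2, was under log2 6 on every PBS array (4.99, 4.88 and 5.15) and reached 9.0, 8.87 and 8.94 with AngII, at least 7.66-fold higher. *Nfil3*, a bZIP repressor that acts on clock-controlled genes, had 7.66, 7.72 and 7.79 with PBS and 11.07, 11.18 and 11.26 with AngII. Its arrays differed little within a group, and it had the smallest adjusted p of all named genes raised (3.77e-11, log2 change 3.45). *Sgk1*, a serum- and glucocorticoid-induced kinase that regulates ion transport, had 6.18, 6.15 and 6.36 with PBS and 9.48, 9.44 and 9.61 with AngII and rose 9.73-fold. *Olr1*, the receptor for oxidized LDL, had 5.27, 5.62 and 5.40 with PBS and 8.5, 8.82 and 8.64 with AngII and rose at least 6.29-fold. Its PBS signals were all under the filter level and its AngII signals all above 8. The ranking used the signals as deposited, also those under log2 6. The bounds of *Olr1* and *Fam110c* are under the 7.52-fold rise of *Dusp6*, which was not among the 12. The other 6 of the 12 genes raised most were *Klhl41*, a kelch protein of striated muscle (10.3-fold), *Fam110c* (at least 4.18-fold), *Egr2*, a zinc finger factor (8.43-fold), *Akap12*, a scaffold for protein kinases A and C (8.17-fold), *Myct1* (8.08-fold) and *Chac1*, an enzyme that degrades glutathione (7.78-fold).

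**Figure D1:**
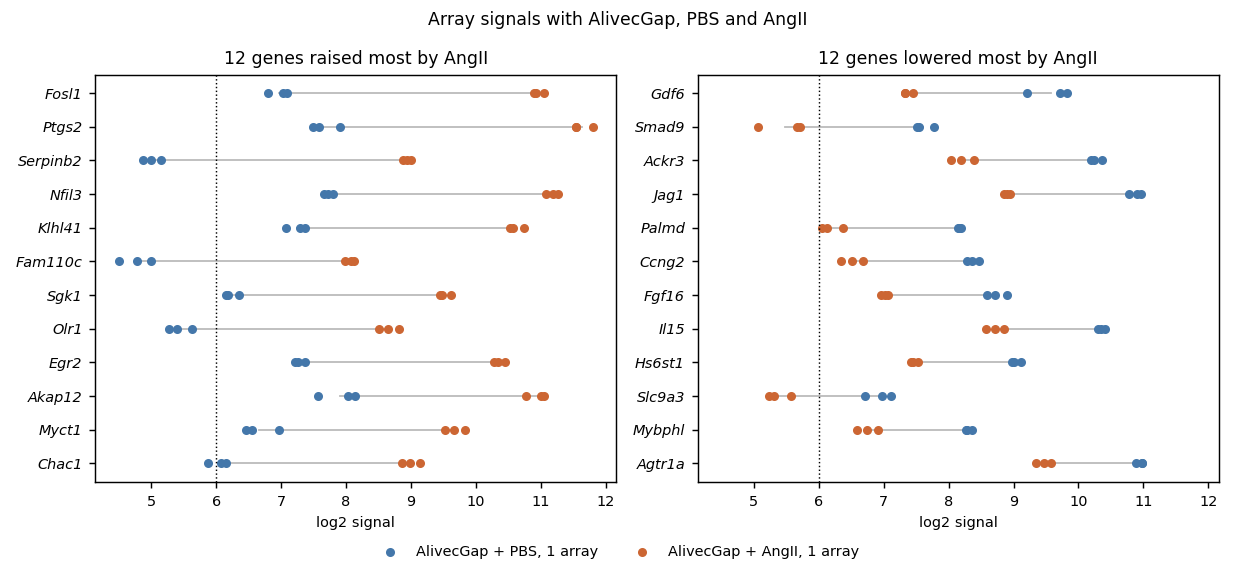
Log2 signal (x axis) of the 12 genes raised most and the 12 genes lowered most by AngII with *Alivec*Gap. Each point is 1 array, with 3 PBS and 3 AngII arrays per gene, grey lines join the group means, and the dotted line marks log2 6. No PBS array overlaps an AngII array for any of the 24 genes, which were chosen by the size of their change.

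The start regions of these genes were read from the RefSeq promoter table of GRCr8, with 250 bases before and 50 bases after each annotated start. All 12 genes were in it, and 8 held a match to the cAMP response element or its shorter form (TGACGTCA, TGACG), to the AP-1 site (TGANTCA) or to the CArG box of serum response factor, on either strand. TGACG is also part of TGACGTCA. The 5 with the largest change are shown because the factors that bind these motifs are classic targets of the kinases downstream of the AngII receptor. Matches are in capitals, and each sequence is written 5′ to 3′ on the strand of its gene.
*Fosl1* (chr1:212183635-212183934, plus strand): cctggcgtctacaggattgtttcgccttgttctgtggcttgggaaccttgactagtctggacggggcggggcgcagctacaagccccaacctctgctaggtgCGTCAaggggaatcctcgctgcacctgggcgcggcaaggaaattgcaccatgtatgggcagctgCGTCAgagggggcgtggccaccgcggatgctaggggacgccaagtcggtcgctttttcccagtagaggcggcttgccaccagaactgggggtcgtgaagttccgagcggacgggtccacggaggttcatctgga
*Serpinb2* (chr13:24055771-24056070, plus strand): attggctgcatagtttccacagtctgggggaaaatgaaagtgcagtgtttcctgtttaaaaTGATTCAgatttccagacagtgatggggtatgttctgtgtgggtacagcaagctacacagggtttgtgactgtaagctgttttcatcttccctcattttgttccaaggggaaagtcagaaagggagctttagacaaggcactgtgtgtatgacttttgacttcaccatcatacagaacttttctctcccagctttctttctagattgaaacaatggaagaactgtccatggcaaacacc
*Nfil3* (chr17:12432126-12432425, plus strand): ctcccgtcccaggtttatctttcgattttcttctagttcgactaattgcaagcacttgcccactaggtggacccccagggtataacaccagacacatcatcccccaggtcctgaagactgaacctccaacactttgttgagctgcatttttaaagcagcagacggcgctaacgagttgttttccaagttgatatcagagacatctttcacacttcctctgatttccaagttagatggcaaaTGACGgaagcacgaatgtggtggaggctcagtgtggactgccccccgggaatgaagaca
*Fam110c* (chr6:53365763-53366062, plus strand): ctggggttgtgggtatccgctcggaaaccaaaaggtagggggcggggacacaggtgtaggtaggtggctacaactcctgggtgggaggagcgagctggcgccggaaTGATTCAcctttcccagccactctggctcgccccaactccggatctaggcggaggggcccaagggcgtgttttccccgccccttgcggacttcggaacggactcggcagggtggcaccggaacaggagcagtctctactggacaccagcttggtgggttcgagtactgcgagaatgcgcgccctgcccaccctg
*Sgk1*, 1 of 3 annotated starts (chr1:24805521-24805820, minus strand): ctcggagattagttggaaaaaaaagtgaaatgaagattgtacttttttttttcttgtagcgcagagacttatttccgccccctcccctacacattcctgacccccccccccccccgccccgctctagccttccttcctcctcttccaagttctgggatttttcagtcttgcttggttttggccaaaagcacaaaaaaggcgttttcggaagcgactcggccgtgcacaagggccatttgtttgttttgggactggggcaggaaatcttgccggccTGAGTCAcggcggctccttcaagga

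*Fosl1* held the short cAMP response element at 2 places, 148 and 84 bases upstream of its start, both on the opposite strand. *Nfil3* held it 9 bases upstream. The AP-1 site began 189 bases upstream in *Serpinb2*, 144 upstream in *Fam110c* and 25 bases downstream of this start in *Sgk1*. *Olr1*, *Egr2* and *Chac1* also held matches, *Egr2* among them a CArG box 83 bases upstream, and *Ptgs2*, *Klhl41*, *Akap12* and *Myct1* held none of these letters in these windows. Such matches are common. TGACG was found in 21.2%, TGACGTCA in 1.83%, TGANTCA in 7.33% and the CArG box in 1.64% of all 33469 promoters. In the 163 promoters of genes raised at least 2-fold the shares were 36.2%, 4.91%, 11.7% and 4.29%, and in the 44 promoters of genes lowered at least 2-fold they were 27.3%, 9.09%, 4.55% and 2.27%. These shares are descriptions, and no match shows that a factor binds. They are per motif and per promoter. The share of all genes with any of these motifs was not counted, so the number of most raised genes with a match has no background.

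Ligands, receptors and transducers of developmental signals were among the genes lowered most. *Gdf6*, a ligand of the BMP family, had 9.20, 9.71 and 9.82 with PBS and 7.33, 7.33 and 7.45 with AngII and fell by 2.21 (log2, with a standard error of 0.131, adjusted p = 1.54e-07). *Smad9*, a transducer of BMP signals, had 7.52, 7.77 and 7.54 with PBS and 5.67, 5.72 and 5.07 with AngII, at least 3.05-fold lower, and its AngII signals were all under 6. *Jag1*, a Notch ligand, had 10.96, 10.78 and 10.91 with PBS and 8.86, 8.90 and 8.94 with AngII and fell by 1.98 (adjusted p = 9.12e-09). All 3 were separated on every array. *Ackr3*, a scavenger receptor for the chemokine CXCL12, fell by 2.06, *Palmd*, palmdelphin, by 1.98, *Ccng2*, an atypical cyclin of quiescent cells, by 1.86, *Fgf16*, a growth factor, by 1.73 and *Il15*, a cytokine, by 1.63. *Hs6st1*, a heparan sulfate sulfotransferase, fell by 1.56, *Mybphl*, a myosin-binding protein, by 1.55, and *Slc9a3*, a sodium-proton exchanger, was at least 1.91-fold lower.

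*Agtr1a*, which encodes the type 1A AngII receptor itself, was among the 12 genes lowered most. Its log2 signals were 10.98, 10.97 and 10.89 with PBS and 9.34, 9.46 and 9.58 with AngII, and it fell by 1.49 (standard error 0.0875, adjusted p = 1.51e-07), or 2.80-fold. Every AngII array lay more than 1 log2 unit below every PBS array. Of 26 tested receptors and ligands of vasoactive agents, 7 rose and 8 fell, counts that turned to 7 higher and 5 lower without *Alivec*Gap PBS replicate 3 or without AngII replicate 2 and to 7 and 6 without AngII replicate 1. *Avpr1a*, the vasopressin receptor of smooth muscle, had 9.58, 9.64 and 9.66 with PBS and 11.11, 11.10 and 11.11 with AngII and rose 2.79-fold, with the 3 AngII arrays nearly equal. *P2ry6*, a receptor for UDP, fell by 0.87 and *Npr3*, the clearance receptor of natriuretic peptides, by 0.56.

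Genes that restrain these signals were among those raised. *Rgs2*, which shortens Gq signaling by speeding GTP hydrolysis, had 7.89, 7.52 and 8.0 with PBS and 10.31, 10.48 and 10.54 with AngII and rose 6.22-fold (adjusted p = 7.98e-09). *Rgs16* rose 3.03-fold and *Rgs17* 2.28-fold, while *Rgs4* was at least 1.57-fold lower. Of 26 tested RGS, G protein and receptor kinase genes 6 rose and 3 fell. Of 15 tested feedback inhibitors of MAP kinase pathways, 12 rose and 0 fell, with a median log2 change of 1.03. *Dusp6*, a phosphatase of ERK, had 8.54, 8.73 and 9.05 with PBS and 11.61, 11.75 and 11.69 with AngII and rose 7.52-fold (adjusted p = 3.41e-08). *Dusp5*, a nuclear ERK phosphatase, had 6.88, 7.01 and 6.66 with PBS and 9.49, 9.67 and 9.72 with AngII and rose 6.86-fold. *Spry2*, a Sprouty inhibitor of receptor tyrosine kinase signaling, rose from 10.05, 10.16 and 10.04 to 12.24, 12.31 and 12.29, and *Dusp10*, a phosphatase of p38 and JNK, rose 2.74-fold. In each of these 4 genes the lowest AngII array lay above the highest PBS array. *Dusp16*, a phosphatase of JNK with the smallest change of the list, overlapped between the groups (6.71, 6.87 and 6.75 with PBS and 6.72, 6.84 and 6.86 with AngII). *Rcan1*, an inhibitor of the calcium-dependent phosphatase calcineurin, had 9.20, 9.29 and 9.18 with PBS and 10.40, 10.58 and 10.55 with AngII and rose 2.44-fold. Of 25 tested genes of calcineurin, NFAT and calcium handling 8 rose and 4 fell. *Atp2b1*, the plasma membrane calcium pump, rose 1.92-fold and *Nfatc1*, a calcineurin-dependent factor, 1.82-fold, while *Nfatc3* fell by 0.50.

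**Figure D2:**
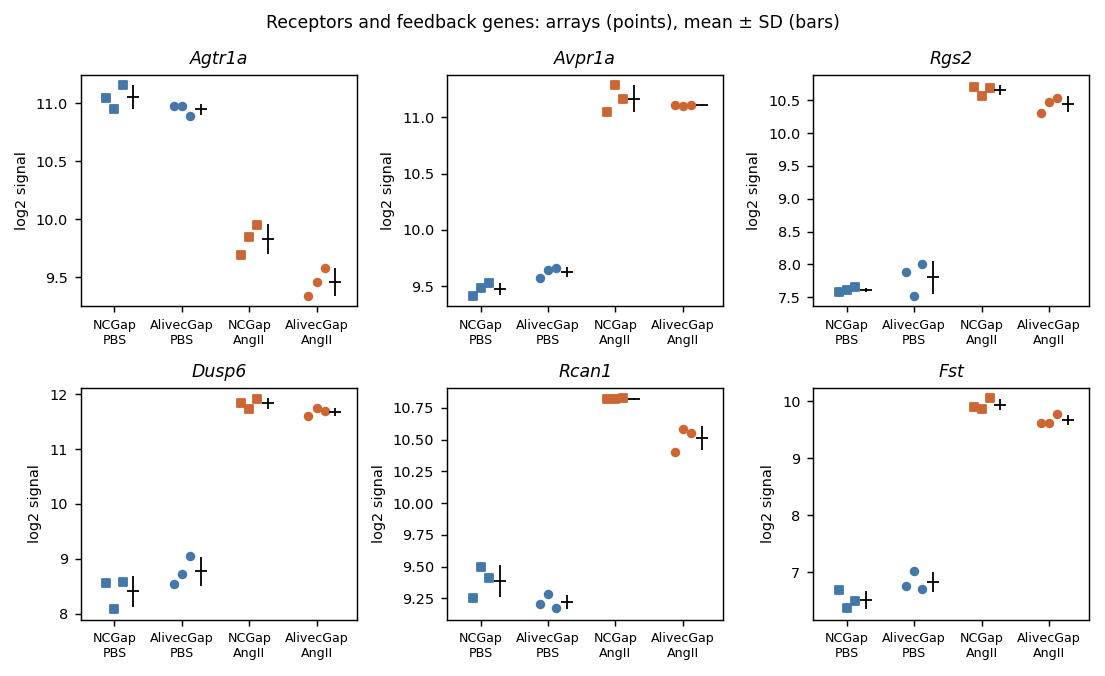
Log2 signal (y axis, own range for each gene) of *Agtr1a*, *Avpr1a*, *Rgs2*, *Dusp6*, *Rcan1* and *Fst* on the 12 arrays. Squares are NCGap and circles *Alivec*Gap arrays, blue is PBS and orange AngII, and bars give mean ± SD of 3 arrays. AngII separates the groups for each gene with either GapmeR.

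Most early response factors rose. The shares over all named genes, 12% higher and 16% lower, are the background for each list. Of all tested named genes, 56 were under log2 6 on all 6 PBS arrays of the series and passed the filter only through AngII arrays. Beside those given with their lists, they include 2 p53 targets. They also include 1 gene each of the lists of glycolysis, chondrogenic genes, the IL-6 family and other growth factors. Of 16 tested AP-1, ATF and MAF genes 8 rose and 1 fell (median 0.32). After *Fosl1*, the largest change was in *Junb*, its possible partner in AP-1, with 7.85, 7.81 and 7.98 with PBS and 9.70, 9.95 and 9.89 with AngII, a 3.90-fold rise. *Maff* and *Mafk*, small MAF proteins, rose 1.84- and 1.80-fold, and *Maf*, a large MAF protein, fell by 0.50. Of 30 tested EGR, NR4A and other early genes 21 rose and 2 fell (median 0.77), and 2 of the 30 were under log2 6 on all 6 PBS arrays of the series. *Egr1*, a zinc finger factor, had 9.82, 9.77 and 9.94 with PBS and 12.04, 12.22 and 12.18 with AngII and rose 4.93-fold, and *Nr4a1*, an orphan nuclear receptor, had 6.84, 6.82 and 6.6 with PBS and 9.33, 9.64 and 9.68 with AngII and rose 6.94-fold. Neither gene overlapped between PBS and AngII. *Btg1*, an antiproliferative gene, fell by 0.78. Of 12 tested KLF factors 7 rose and 2 fell: *Klf6* rose 3.06-fold, *Klf10* 1.96-fold, *Klf9* 1.53-fold and *Klf4*, a repressor of smooth muscle genes, 1.40-fold, and *Klf15* fell by 0.71. Of 18 tested clock genes 9 rose and 2 fell (median 0.25). *Bhlhe40*, a repressor of the clock, had 8.52, 8.77 and 8.93 with PBS and 10.07, 10.08 and 10.25 with AngII and rose 2.63-fold. *Bmal1*, the partner of CLOCK, rose 1.97-fold and *Per2* 1.62-fold, while *Per3* fell by 0.65.

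**Figure D3:**
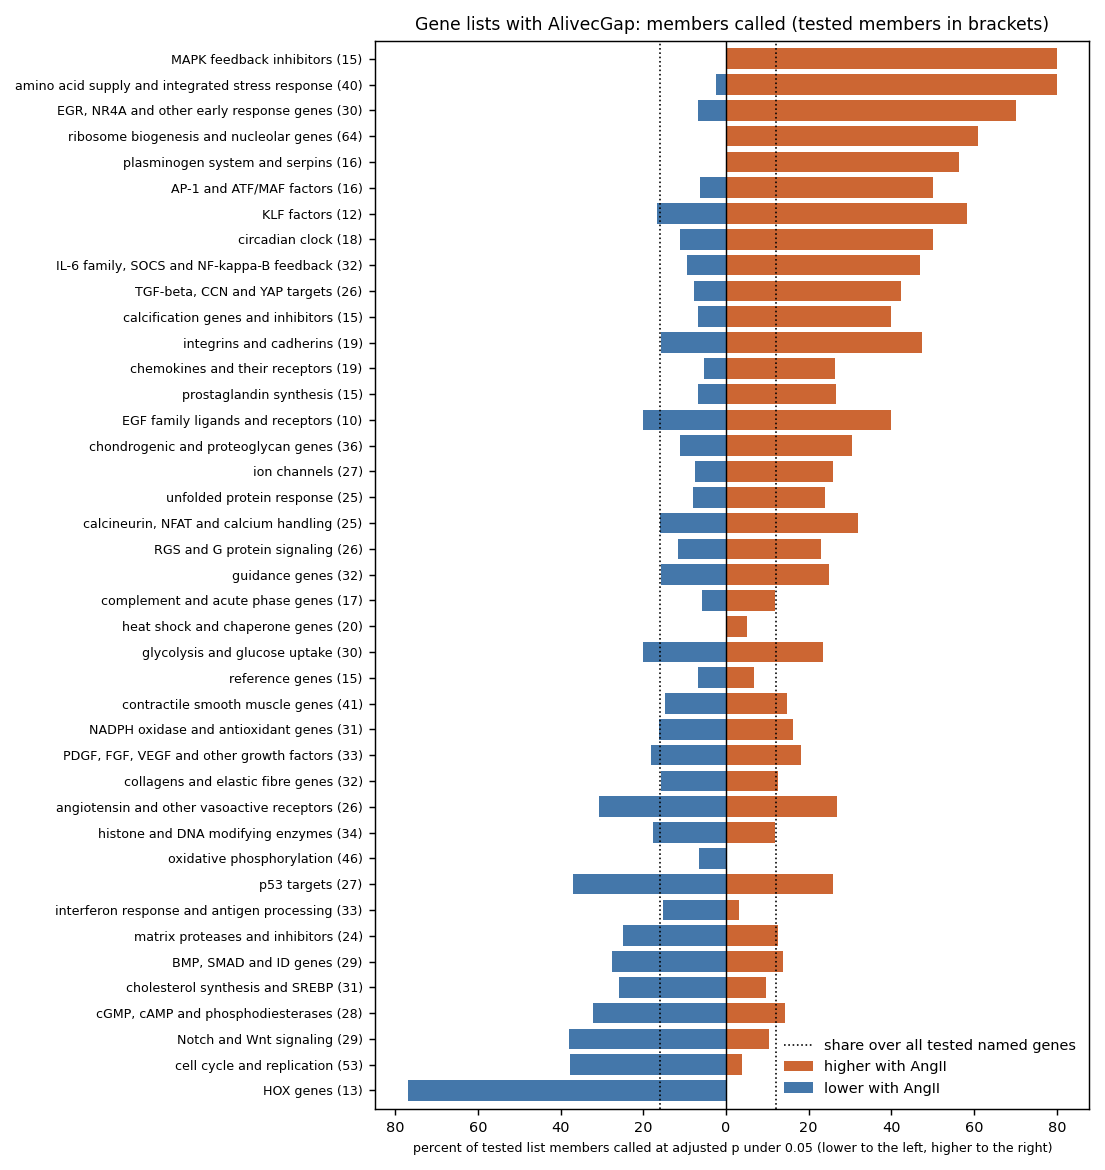
Percent of the tested members of 41 gene lists that were higher (orange, to the right) or lower (blue, to the left) with AngII after *Alivec*Gap at an adjusted p under 0.05, with the number tested in brackets. Dotted lines are the shares over all tested named genes, 12% higher and 16% lower, and the lists run from 80% higher for MAPK feedback inhibitors to 76.9% lower for HOX genes.

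Among 10 tested EGF family genes 4 rose and 2 fell. *Hbegf*, a ligand shed to activate the EGF receptor, had 10.02, 9.99 and 10.07 with PBS and 11.86, 11.93 and 11.86 with AngII and rose 3.63-fold (adjusted p = 1.22e-09). *Areg*, amphiregulin, rose 2.0-fold, and the ligands *Btc* and *Nrg1* fell by 0.55 and 0.61. Of 33 tested genes of other growth factors and their receptors 6 rose and 6 fell. *Flt1*, a VEGF receptor, had 6.6, 7.04 and 6.69 with PBS and 8.81, 8.70 and 8.83 with AngII and rose 4.01-fold, *Fgf2* 2.14-fold, *Csf1*, the macrophage growth factor, 1.95-fold and *Pdgfa* 1.90-fold. *Fgfr2*, an FGF receptor, fell by 0.57 and *Pgf*, placental growth factor, by 0.51.

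In the TGF-beta superfamily, the activin gene and the gene of its inhibitor both rose. *Inhba*, the subunit of activin A, had 9.49, 9.53 and 9.49 with PBS and 11.76, 11.82 and 11.93 with AngII and rose 5.04-fold (adjusted p = 1.20e-09). *Fst*, follistatin, which binds and blocks activin, had 6.76, 7.02 and 6.7 with PBS and 9.62, 9.62 and 9.77 with AngII and rose 7.17-fold (adjusted p = 2.43e-09). For both, the lowest AngII array lay more than 2 log2 units above the highest PBS array. Of 26 tested TGF-beta, CCN and YAP target genes 11 rose and 2 fell (median 0.16): *Tgif1*, a corepressor of SMADs, rose 2.41-fold and the matricellular gene *Ccn1* 1.72-fold, and *Ankrd1*, a muscle ankyrin repeat protein, fell by 0.74. Of 29 tested BMP, SMAD and ID genes 4 rose and 8 fell. Beside *Fst*, *Bmper*, a secreted BMP modulator, rose 1.68-fold, and *Gdf6* and *Smad9* were the lowest.

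Of 29 tested Notch and Wnt genes 11 fell and 3 rose, with a median change of -0.06. The number that rose was 1 without *Alivec*Gap PBS replicate 1 or 2 or AngII replicate 1 and with a prior that follows the signal. *Hey1*, a Notch target that represses transcription, had 9.65, 9.81 and 9.73 with PBS and 8.39, 8.70 and 8.42 with AngII and fell by 1.23. *Fzd2* and *Fzd1*, Wnt receptors, fell by 1.36 and 1.31, from 11.21, 11.37 and 11.35 to 9.98, 9.90 and 9.98 for *Fzd2*. *Jag1*, *Hey1*, *Fzd1* and *Fzd2* each lay lower on all AngII arrays than on any PBS array, and the receptor *Notch1* rose 1.41-fold.

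Some genes of prostaglandins, fibrinolysis and inflammation rose. Of 15 tested prostaglandin genes 4 rose and 1 fell. Beside *Ptgs2*, *Pla2g4a*, the phospholipase that frees arachidonic acid, had 7.51, 7.53 and 7.82 with PBS and 8.61, 8.69 and 8.69 with AngII and rose 2.06-fold, *Slco2a1*, a prostaglandin transporter, 2.07-fold. *Ptger4*, a receptor for prostaglandin E2, fell by 0.35, a call lost without *Alivec*Gap PBS replicate 2 or 3 or AngII replicate 1 or 2. Of 16 tested genes of the plasminogen system and serpins 9 rose and 0 fell (median 0.26), and 1 of them, *Serpinb2*, was under log2 6 on all PBS arrays. *Plaur*, the urokinase receptor, had 8.30, 8.26 and 8.21 with PBS and 10.83, 11.22 and 10.94 with AngII and rose 6.66-fold. *Plat*, tissue plasminogen activator, rose 2.71-fold and *F3*, tissue factor, 1.93-fold.

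Of 32 tested genes of the IL-6 family, SOCS proteins and NF-kappa-B 15 rose and 3 fell (median 0.26). *Il1rl1*, the receptor for interleukin 33, had 9.67, 9.76 and 9.79 with PBS and 12.11, 12.11 and 12.07 with AngII and rose 5.13-fold (adjusted p = 5.22e-10). *Socs5*, a suppressor of cytokine signaling, rose 2.98-fold and the kinase *Pim1* 2.04-fold. Of 19 tested chemokine genes 5 rose and 1, *Ackr3*, fell. *Ccl2*, the monocyte chemokine, had 9.85, 9.77 and 9.83 with PBS and 10.68, 10.70 and 10.83 with AngII and rose 1.89-fold, and *Cxcl1*, a neutrophil chemokine, rose 2.54-fold. *Ccl2* was even within each group, while *Cxcl1* varied more with PBS (7.46, 7.13 and 7.70). *Cd55*, which protects cells from complement, rose 3.14-fold, and in all 2 of 17 tested complement and acute phase genes rose and 1 fell. Of 33 interferon response genes 1 rose and 5 fell, but without *Alivec*Gap PBS replicate 3 the counts were 6 higher and 3 lower, and without *Alivec*Gap AngII replicate 2, 2 fell. PBS replicate 3 was the highest of the *Alivec*Gap PBS arrays for 31 of the 33. In the other groups, replicate 3 was the highest for 21 with *Alivec*Gap and AngII, 16 with NCGap and PBS and 24 with NCGap and AngII. *Usp18*, a protease induced by interferon, had 6.42, 6.79 and 8.48 with PBS and 7.90, 7.61 and 7.87 with AngII, so that replicate 3 alone was high with PBS (adjusted p = 0.343). Without that array its log2 change was 1.19, past the threshold.

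The chondrogenic genes of the study still rose with AngII when *Alivec*Gap was present. The paper made another comparison, *Alivec*Gap against NCGap. It reported lower *Acan*, *Tnfaip6*, *Runx1*, *Olr1* and *Spp1* after knockdown by arrays and RT-qPCR, and less alcian blue staining. With *Alivec* overexpression it reported higher *Acan* and other chondrogenic genes. A rise from PBS to AngII within *Alivec*Gap does not test those results. *Acan* had 7.54, 7.62 and 7.78 with PBS and 9.51, 9.60 and 9.45 with AngII, a 3.67-fold rise (log2 change 1.87, standard error 0.0937, adjusted p = 3.49e-08). *Runx1*, a transcription factor of cartilage and bone, had 7.05, 6.92 and 7.19 with PBS and 8.40, 8.93 and 8.89 with AngII and rose 3.23-fold, and *Runx2*, its relative that drives bone formation, had 6.07, 6.15 and 6.56 with PBS and 7.35, 7.28 and 7.26 with AngII and rose 2.05-fold. The 3 AngII arrays lay above the 3 PBS arrays for each. *Tnfaip6*, which binds hyaluronan, had 7.64, 7.91 and 7.60 with PBS and 8.47, 8.61 and 8.68 with AngII and rose 1.83-fold, and *Spp1*, osteopontin, had 11.19, 11.15 and 10.88 with PBS and 11.45, 11.59 and 11.56 with AngII and rose 1.37-fold. These 2 had smaller changes than *Acan*, *Runx1* and *Runx2*. Of 36 tested genes of cartilage and proteoglycans 11 rose and 4 fell (median 0.10; 2 fell without *Alivec*Gap AngII replicate 2 or 3). This list holds genes that the study named, some of them from these same arrays. *Sdc4*, syndecan 4, rose 2.15-fold, *Cspg4*, the NG2 proteoglycan, 1.86-fold, and *Sox4* fell by 1.10. Of 15 tested calcification genes 6 rose and 1 fell (median 0.20; 0 fell without *Alivec*Gap PBS replicate 3). The members that rose had opposite known roles. *Slc20a2* and *Slc20a1*, phosphate transporters, rose 2.89- and 2.06-fold, and the inhibitors *Tnfrsf11b*, osteoprotegerin, and *Enpp1*, which makes pyrophosphate, rose 2.04- and 1.80-fold.

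Of 32 tested collagen and elastic fibre genes 4 rose and 5 fell, a balance that turned to 4 and 3 with arrays centred on their medians, at the study's thresholds or without *Alivec*Gap AngII replicate 1, and to 4 and 2 without *Alivec*Gap PBS replicate 2. The 5 that fell also became 3 without the filter on low signal, in the fit of the *Alivec*Gap arrays alone and without PBS replicate 1 or AngII replicate 3. *Loxl4*, a lysyl oxidase, had 7.71, 7.61 and 8.19 with PBS and 9.47, 9.48 and 9.78 with AngII and rose 3.34-fold, *Tnc*, tenascin C, an adhesive matrix glycoprotein, rose 2.18-fold and *Col3a1*, a fibrillar collagen, fell by 0.52. Of 24 tested matrix proteases and inhibitors 3 rose and 6 fell (3 fell without *Alivec*Gap AngII replicate 3), *Timp1*, an inhibitor, rising 1.43-fold and *Adamts5*, an aggrecanase, falling from 8.43, 8.66 and 8.82 to 7.65, 7.52 and 7.68. Of 19 tested integrin, cadherin and adhesion genes 9 rose and 3 fell (median 0.23), and 5 rose without *Alivec*Gap AngII replicate 2. *Itga5*, the fibronectin receptor subunit, had 9.13, 9.53 and 9.37 with PBS and 10.52, 10.75 and 10.61 with AngII and rose 2.43-fold, *Itga7*, a laminin receptor subunit, 2.40-fold and *Itga6* 1.69-fold, and *Cdh11*, a mesenchymal cadherin, fell by 0.44.

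Genes that make ribosomes and supply amino acids rose broadly. Of 64 tested genes of ribosome biogenesis, 39 rose and 0 fell, with a median log2 change of 0.32 and a largest change of 0.75. The number that rose was 26 without *Alivec*Gap AngII replicate 3 and 27 without PBS replicate 1. *Rrp9*, a U3 snoRNP protein, had 9.0, 9.06 and 9.16 with PBS and 9.76, 9.86 and 9.84 with AngII (adjusted p = 1.47e-04), *Wdr43*, a factor of the small subunit processome, rose 1.66-fold and *Nop58*, a core protein of box C/D snoRNPs, had 10.77, 10.75 and 10.81 with PBS and 11.28, 11.28 and 11.33 with AngII and rose 1.44-fold. The groups did not overlap for these genes although each rise was under 2-fold. *Ubtf*, the RNA polymerase I factor, had the lowest change of the list (-0.20, adjusted p = 0.0801). Of 40 tested genes of amino acid supply and the integrated stress response 32 rose and 1, *Vldlr*, a lipoprotein receptor, fell (median 0.43). The call of *Vldlr* was lost without *Alivec*Gap PBS replicate 1 or 2 or AngII replicate 1. Without *Alivec*Gap AngII replicate 3, 26 of the 40 rose. *Trib3*, a pseudokinase target of ATF4, had 6.96, 6.90 and 6.82 with PBS and 8.34, 8.68 and 8.52 with AngII and rose 3.08-fold. *Slc7a5*, the leucine transporter LAT1, had 9.25, 9.37 and 9.34 with PBS and 10.69, 10.95 and 10.91 with AngII and rose 2.89-fold, and *Mthfd2*, a mitochondrial folate enzyme, rose 2.10-fold.

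The unfolded protein response was covered by 25 tested genes, of which 6 rose and 2 fell (1 fell without *Alivec*Gap PBS replicate 1 or 2 or AngII replicate 1 or 3), *Herpud1*, a factor of degradation at the endoplasmic reticulum, rising 1.65-fold and the sensor *Ern1* 1.64-fold. Of 20 heat shock genes 1 rose, *Hspa1a*, the inducible HSP70 (6.63, 6.83 and 6.85 with PBS and 8.09, 7.84 and 7.81 with AngII), which shares sequence with a near-identical copy. Glycolysis was split, with 7 of 30 higher and 6 lower, which became 6 and 7 in the fit of the *Alivec*Gap arrays alone. *Hk2*, hexokinase 2, had 5.06, 5.57 and 5.85 with PBS and 7.13, 7.09 and 7.78 with AngII and rose at least 2.52-fold, and the glucose transporters *Slc2a3* and *Slc2a1* rose 1.78- and 1.69-fold, while *Pdk2*, a kinase that inhibits pyruvate dehydrogenase, fell by 0.54. Of 31 tested cholesterol and SREBP genes 3 rose and 8 fell, *Dhcr7*, the last enzyme of cholesterol synthesis, falling by 0.83 and *Insig1*, which holds back SREBP, rising 1.56-fold. Of 46 tested genes of oxidative phosphorylation 0 rose and 3 fell, with a median of -0.07 and all changes between -0.29 and 0.09. The 3 became 0 without *Alivec*Gap AngII replicate 1 or in the fit of the *Alivec*Gap arrays alone. They became 1 without *Alivec*Gap PBS replicate 1 or 2, *Alivec*Gap AngII replicate 2, NCGap PBS replicate 1 or NCGap AngII replicate 1, and 9 with a prior that follows the signal. Of 31 tested NADPH oxidase and antioxidant genes 5 rose and 5 fell (9 fell without *Alivec*Gap AngII replicate 3). *Nox1*, the inducible oxidase of smooth muscle, had 6.04, 5.74 and 6.12 with PBS and 6.62, 6.78 and 7.06 with AngII and rose at least 1.76-fold, and *Nox4*, the constitutive oxidase, had 9.57, 9.62 and 9.41 with PBS and 8.72, 9.02 and 8.81 with AngII and fell by 0.68. The 2 oxidases thus moved in opposite directions.

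**Figure D4:**
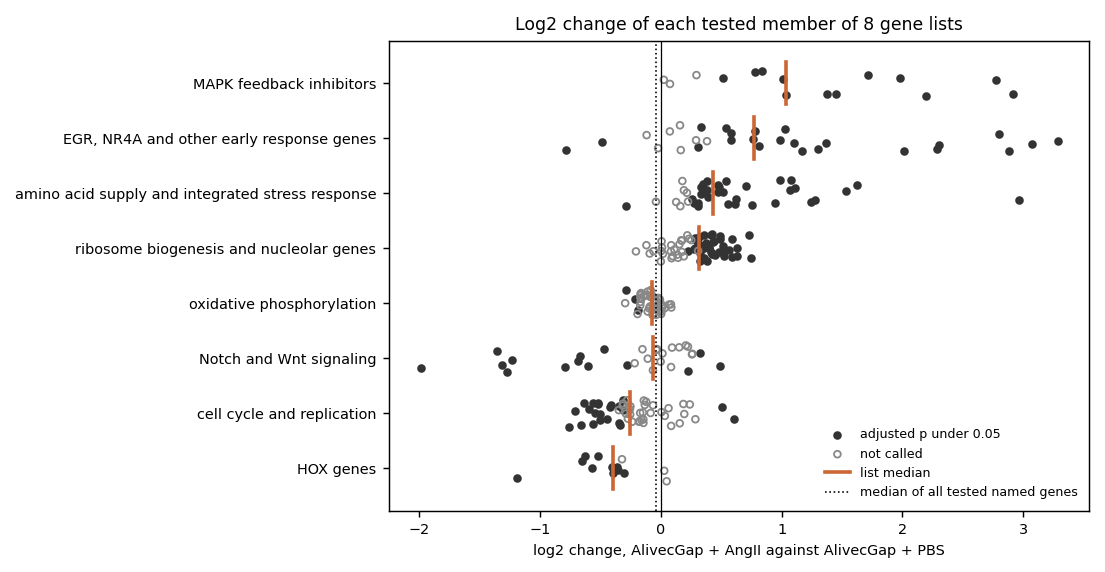
Log2 change of every tested member of 8 gene lists with AngII after *Alivec*Gap. Filled points passed an adjusted p under 0.05, open points did not, orange bars are list medians and the dotted line is the median of all tested named genes (-0.04). Ribosome biogenesis genes form a narrow band around 0.32 and HOX genes lie around -0.39.

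Cell cycle genes leaned lower. Of 53 tested, 20 fell and 2, *Ccnf* and *Cdk6*, rose, with a median of -0.25. The number that fell was 13 without *Alivec*Gap PBS replicate 3 or AngII replicate 1, and 12 without moderation of the spread, where *Ccnf* did not pass either. *Ccnf*, a cyclin that directs protein degradation, also lost its call without any 1 of the *Alivec*Gap PBS arrays or AngII replicate 1. *Tyms*, thymidylate synthase, had 10.29, 10.35 and 10.31 with PBS and 9.54, 9.58 and 9.69 with AngII and fell by 0.71 (adjusted p = 2.52e-05). *Mcm2*, a subunit of the replicative helicase, had 9.5, 9.5 and 9.53 with PBS and 8.96, 8.96 and 8.97 with AngII and fell by 0.54. *Cdkn2c*, an inhibitor of cyclin-dependent kinases, also fell, by 0.76. The arrays of *Mcm2* agreed within 0.03 in each group. Of 27 tested p53 targets 7 rose and 10 fell, and 7 rose and 6 fell without *Alivec*Gap AngII replicate 2. Without PBS replicate 2, 6 fell, and without PBS replicate 1 or AngII replicate 3, 4 rose. *Fas*, a death receptor, had 9.34, 9.33 and 9.45 with PBS and 8.35, 8.21 and 8.41 with AngII and fell by 1.05, *Xpc*, a DNA repair gene, fell by 0.54, and *Plk3*, also an early response gene, rose only from 4.5, 4.69 and 4.60 to 5.91, 6.0 and 6.0, signals near or under the filter level.

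Most HOX genes, which mark position along the body axis, fell. Of 13 tested HOX genes and cofactors 10 fell and 0 rose, with a median of -0.39. The number that fell was 7 without *Alivec*Gap PBS replicate 1 or AngII replicate 1. *Hoxa7* had 8.26, 8.28 and 8.36 with PBS and 7.16, 6.77 and 7.39 with AngII and fell by 1.19 (adjusted p = 1.28e-04). *Hoxd9* fell by 0.65, *Hoxa6* by 0.63 and the cofactor *Meis1* by 0.37, while *Hoxd3* had a change of 0.05 and overlapped between the groups. Of 34 tested enzymes that modify histones or DNA 4 rose and 6 fell. *Dot1l*, a histone H3 methyltransferase, had 7.57, 7.50 and 7.54 with PBS and 10.07, 10.22 and 10.14 with AngII and rose 6.09-fold (adjusted p = 5.22e-10). *Hdac9*, a histone deacetylase, rose 1.69-fold, *Kdm6b*, a demethylase of a repressive H3 mark, 1.58-fold, and *Kdm2b*, another demethylase, fell by 0.67.

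Of 41 tested contractile genes 6 rose and 6 fell (median -0.05), and 3 fell without *Alivec*Gap PBS replicate 2. Of the 10 smooth muscle markers 0 rose and 3 fell, *Myh11*, *Smtn* and *Lmod1*, and without *Alivec*Gap PBS replicate 2, 1 rose and 1 fell. *Lmod1*, leiomodin, lost its call without any 1 of the *Alivec*Gap PBS arrays or AngII replicate 1 or 2, and with arrays centred on their medians. *Acta2*, smooth muscle actin, had 12.49, 12.52 and 12.40 with PBS and 12.38, 12.38 and 12.33 with AngII (log2 change -0.10, adjusted p = 0.232) and *Tagln*, SM22, had -0.07 (adjusted p = 0.514). The marker *Myh11*, smooth muscle myosin heavy chain, had 11.21, 11.22 and 11.07 with PBS and 10.67, 10.86 and 10.70 with AngII and fell by 0.42. *Fhl2*, a LIM cofactor of serum response factor, had 9.21, 9.17 and 9.08 with PBS and 10.76, 10.77 and 10.74 with AngII and rose 3.03-fold, *Srf* itself 1.5-fold, and *Pln*, phospholamban, fell by 0.78. *Tpm3*, a tropomyosin, rose 1.24-fold, and the RNA-binding *Hnrnpa2b1* had a change of -0.03 (adjusted p = 0.811). The reference genes *Ppia* and *Gapdh* had -0.10 and 0.11 (adjusted p = 0.313 and 0.190).

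Of 28 tested genes of cGMP, cAMP and phosphodiesterases 4 rose and 9 fell. Both subunits of the nitric oxide receptor, soluble guanylate cyclase, fell. *Gucy1a1* had 10.08, 10.12 and 10.01 with PBS and 9.13, 9.40 and 9.41 with AngII and fell by 0.76, and *Gucy1b1* had 9.09, 9.06 and 8.92 with PBS and 8.01, 8.25 and 8.49 with AngII and fell by 0.77. *Pde5a*, which degrades cGMP, also fell, by 0.54. Of 27 tested ion channel genes 7 rose and 2 fell, and 0 fell without *Alivec*Gap AngII replicate 2 and 1 without any other *Alivec*Gap array. *Kcnn4*, a calcium-activated potassium channel of proliferating smooth muscle, had 6.77, 7.19 and 7.29 with PBS and 9.5, 9.41 and 9.67 with AngII and rose 5.43-fold, *Trpc4*, a cation channel, rose 2.17-fold, *Ano1*, a calcium-activated chloride channel, 2.12-fold and the stretch channel *Piezo1* 1.77-fold. Of 32 tested guidance genes 8 rose and 5 fell (3 fell without *Alivec*Gap PBS replicate 2): *Sema7a*, a semaphorin that binds integrins, had 6.88, 7.19 and 7.35 with PBS and 9.33, 9.56 and 9.45 with AngII and rose 4.96-fold, *Epha2*, an ephrin receptor, rose 3.39-fold and its relative *Epha4* fell by 1.09.

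Set beside the response with NCGap, the genes with the largest changes moved in the same direction. Agreement of sign over all tested genes was not counted. All 188 genes raised and all 56 lowered at least 2-fold with *Alivec*Gap also had a change of that sign with NCGap. The log2 change was smaller with *Alivec*Gap in 134 of the 188, with a median ratio of 0.93, and in 33 of the 56, with a median ratio of 0.974. The genes were chosen by their values with *Alivec*Gap, so these counts are descriptions. List medians were 1.03 with *Alivec*Gap and 1.18 with NCGap for MAPK feedback inhibitors, 0.43 and 0.58 for amino acid supply, 0.32 and 0.39 for ribosome biogenesis, -0.25 and -0.28 for the cell cycle and -0.39 and -0.38 for HOX genes.

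The difference between the responses was tested as the interaction of GapmeR and AngII. In limma, 0 probe sets passed an adjusted p under 0.05 (smallest 0.452), and 814 (5.5%) had an unadjusted p under 0.05, 780 without moderation of the spread. If no response differed, a share of 0.05 would be expected at that unadjusted threshold. The 814 moved both ways in the alternatives. With weights for the arrays it was 1481, and dropping NCGap PBS replicate 3 gave 1455. Fewer passed after other single arrays were dropped: 606 for NCGap PBS replicate 1, 637 for *Alivec*Gap PBS replicate 2 and 670 for *Alivec*Gap AngII replicate 1. *Rnf144b*, a ubiquitin ligase, had the smallest p (adjusted p = 0.452), but its signals were under log2 6 in all groups except *Alivec*Gap with AngII (6.52, 6.72 and 6.69), so no difference of changes is given. *Dhrs9*, a retinol dehydrogenase, rose by 1.70 with *Alivec*Gap and by 2.27 with NCGap, a difference of -0.56 (95% interval -0.82 to -0.31). Of the genes the study names, *Tnfaip6* differed by -0.49 (-0.88 to -0.10), *Runx1* by -0.38 (-0.80 to 0.04), *Acan* by -0.25 (-0.53 to 0.04), *Runx2* by 0.32 (-0.08 to 0.72) and *Spp1* by 0.14 (-0.11 to 0.40), each with an adjusted p of at least 0.886. *Olr1*, whose PBS signals were under log2 6, rose at least 6.29-fold with *Alivec*Gap and at least 10.1-fold with NCGap. The intervals are not adjusted for the number of genes. For *Agtr1a* the difference was -0.27 (-0.54 to 0.00), for *Fst* -0.58 (-0.90 to -0.26), for *Sgk1* -0.51 (-0.86 to -0.17) and for *Fzd2* 0.40 (0.19 to 0.60). For *Fosl1* it was -0.11 (-0.48 to 0.27) and for *Egr1* 0.03 (-0.19 to 0.25). A p that misses the threshold does not show that the responses were alike, and with 3 arrays in a group most of these intervals were wider than 0.5 log2 units.

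**Figure D5:**
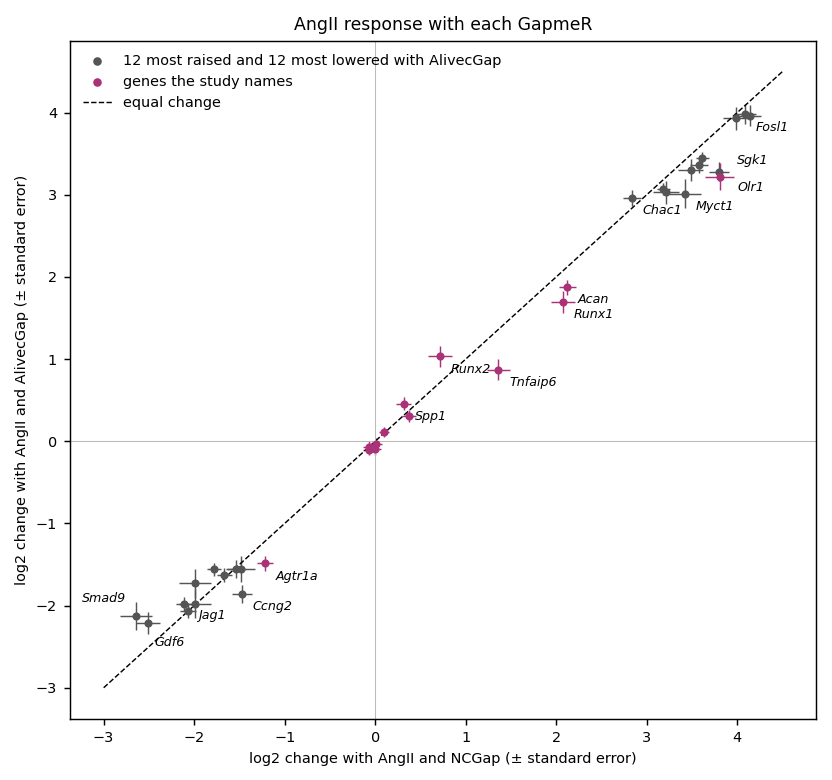
Log2 change with AngII and NCGap (x axis) against that with AngII and *Alivec*Gap (y axis) for the 12 most raised and 12 most lowered genes (grey) and the genes the study names (purple), each from 3 AngII and 3 PBS arrays with standard errors. Points lie near the line of equal change, with *Sgk1*, *Myct1* and *Tnfaip6* below it and *Runx2* above it, and genes with a group mean under log2 6, such as *Olr1*, are drawn at their measured change.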

How the data were processed

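RNA of 12 samples was hybridized to Clariom S rat arrays, and the deposited values are log2 signals that the authors made from the scanner files with robust multi-array averaging (RMA) in Partek Genomics Suite. The scanner files were not used. The genome build of the probe sets is not given in the sources used here. Of 23188 probe sets, 15049 carry 1 gene symbol and 8139 none, and 14796 were tested, those whose log2 signal reached 6 on 3 or more arrays. Group means were fitted to all 12 arrays with limma 3.58.1 in R 4.3.3, which pools the spread of the 4 groups, and p-values were adjusted by Benjamini-Hochberg over all tested probe sets. The interaction compares AngII against PBS between the GapmeRs. The fit was tested on simulated data. A gene with several probe sets is given by the one with the highest mean signal. With 3 arrays in a group, the number of arrays limits the precision.

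The members and the gene lists were chosen with earlier results of these data known, and the lists were written from general knowledge. Genes in the report were named by rule: the 12 most raised and 12 most lowered, the genes the study names, the 10 with the smallest interaction p, and in each list the 4 members with the smallest p and those with the highest and lowest change. Genes outside this rule were named after their values were seen. Alternatives changed the filter, the spread model, the scaling and the arrays used.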

Additional observations from a re-analysis of the deposited data

How the results depend on the processing

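Over all alternatives, the number of probe sets higher with AngII after *Alivec*Gap ran from 1267 to 1807 and the number lower from 1614 to 2701. Leaving out 1 array in turn gave 1267 to 1684 higher and 1614 to 2446 lower. With arrays centred on their medians 1662 were higher and 1879 lower. Under the study's thresholds, a change of at least 1.2-fold and an unadjusted p under 0.05, 692 of 14796 probe sets passed for the interaction, against 0 after adjustment. The unadjusted p alone was met by 814 (5.5%), where a share of 0.05 would be expected if no response differed. Every other alternative in which the interaction was fitted gave 0. The fit with the replicate block called 1663 higher and 2484 lower and changed no call of the genes described by name in the report and below, though single calls within some lists moved. Between the *Alivec*Gap groups, deviations of arrays of the same number correlated at 0.126, 0.029 and 0.157. Those of unlike number correlated at -0.195 to 0.083. Over all pairs of groups, the values were 0.027 to 0.181 for number 1, -0.094 to 0.107 for number 2 and 0.081 to 0.323 for number 3. Whether arrays of the same number share a culture or a batch is not given by the labels and was not tested. Where leaving out 1 array ended the call of a gene the report describes, or moved a list count, the report gives some such values beside the result. List counts given without them also moved. Without *Alivec*Gap AngII replicate 2, the members higher went from 9 to 6 for the plasminogen system and serpins and from 7 to 5 for KLF factors. They went from 15 to 12 for the IL-6 family list and from 5 to 6 for chemokines. With a prior that follows the signal 11 contractile genes and 8 NADPH oxidase and antioxidant genes fell, and with a filter at log2 7 2 interferon response genes fell. The cause was not tested. Signals near log2 6 limit what folds can be given.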

Other observations

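Of the genes that passed 2-fold with AngII after *Alivec*Gap, 107 of the 188 raised and 40 of the 56 lowered belong to none of the gene lists. Those named here were chosen after their values were seen. *Noct*, nocturnin, an enzyme under control of the clock, had log2 signals of 7.04, 7.41 and 7.07 with PBS and 9.71, 9.96 and 9.87 with AngII and rose 6.38-fold (limma, adjusted p = 4.62e-09). *Trib2*, a pseudokinase, had 7.27, 7.46 and 7.23 with PBS and 9.42, 9.88 and 9.71 with AngII and rose 5.11-fold. *Slc7a8*, a transporter of neutral amino acids, had 9.70, 9.68 and 9.97 with PBS and 11.92, 12.03 and 12.02 with AngII and rose 4.62-fold. None of these overlapped between PBS and AngII. *Fjx1* rose 5.67-fold, *Rnd1*, a GTPase that loosens actin fibres, 4.26-fold, *Esm1*, the secreted proteoglycan endocan, 4.13-fold and *Pvr*, a nectin-like adhesion receptor, 4.02-fold. *Cd44*, the hyaluronan receptor, rose 2.88-fold, *Nppb*, which encodes B-type natriuretic peptide, 2.95-fold and *Sphk1*, which makes sphingosine 1-phosphate, 2.50-fold. Among transcription factors, *Ets1* rose 2.21-fold and *Twist1* 2.26-fold.

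Among the genes lowered outside the lists, *Slc40a1*, the iron exporter ferroportin, had 8.54, 8.53 and 8.25 with PBS and 7.03, 7.06 and 7.24 with AngII and fell by 1.33 on the log2 scale (adjusted p = 8.80e-06). *Tbx18*, a transcription factor of mural cells, fell by 1.08, *Dab2*, an endocytic adaptor, by 1.11 and *Lrrc32*, which holds latent TGF-beta at the cell surface, by 1.06. *Akap5*, an anchoring protein of protein kinase A, had 8.0, 7.88 and 7.92 with PBS and 6.97, 6.09 and 6.78 with AngII and fell by 1.33, while *Akap12* was among the genes raised most.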
